A study of Mus musculus with 8 samples.

Results

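The immunoglobulin locus genes were the 268 of the 55933 rows of the expression table whose gene type is an immunoglobulin constant, variable (V), joining (J), diversity (D) or LV gene. They comprised 218 V genes, 19 D genes, 14 J genes, 13 constant region genes and 4 LV genes. The heavy chain locus on chromosome 12, from 113254830 to 116000461 of GRCm38, held 146 of them, the kappa light chain locus on chromosome 6, from 67555497 to 70726966, held 108, and the lambda light chain locus on chromosome 16, from 19061618 to 19260859, held 12. The remaining 2, the LV genes Gm17472 and Gm20730, lay elsewhere on chromosome 6. At least 1 read was found for 203 of the 268 members, in all 8 libraries for 45 and in a single library for 22. The 19 D genes, the 4 LV genes and Ighe, the constant region of IgE, had 0 reads in every library.

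Mammary epithelial preparations of 4 control and 4 cKO female mice of C57BL/6 background were taken at pregnancy day 14.5 and each gave 1 RNA-seq library. The cKO mice were K14-rtTA;teto-Cre;Bmpr1a fl/fl animals given doxycycline in their drinking water, so that Cre recombinase was driven by the keratin 14 promoter in myoepithelial cells and removed the BMP receptor gene Bmpr1a there. The controls were littermates, called WT in the sample labels, and neither the transgenes and floxed alleles they carried nor whether they received doxycycline is given in the sources used here. The glands were freed of fat by enzymatic digestion and of red blood cells by lysis, and no sorting step is described.

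An immunoglobulin consists of heavy and light chains, and each chain gene is assembled in a B cell by joining a V segment, in heavy chains a D segment, and a J segment, which are transcribed together with a downstream constant region. The constant region sets the class: IgM and IgD are carried by naive B cells, while class switching in activated B cells gives IgG, IgA or IgE. Plasma cells secrete immunoglobulin in bulk. In the mammary gland, plasma cells that make polymeric IgA, held together by the J chain, settle from late pregnancy into lactation, and the epithelium carries this IgA into milk with the polymeric immunoglobulin receptor, Pigr.

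Reads on V genes are the part of the data that depends on which B cells a mouse carried. The last 60 bases of the V genes with the most reads in a library are shown here, since this is the end at which a V segment is joined, and each is the germline sequence of GENCODE vM21 (GRCm38), not one read from these mice. The capitals mark the last match to TANTNNTGN on the given strand, where the codons for tyrosine, for tyrosine or phenylalanine, and for cysteine lie ahead of the third hypervariable loop. This motif was found in the last 60 bases of 209 of the 218 V genes (95.9%).
The heavy V genes Ighv1-81 (chr12:115920279-115920712, minus strand), Ighv9-2 (chr12:114109001-114109430, minus), Ighv9-3 (chr12:114140692-114141122, minus) and Ighv1-26 (chr12:114788372-114788805, minus) each led at least 1 library:
Ighv1-81: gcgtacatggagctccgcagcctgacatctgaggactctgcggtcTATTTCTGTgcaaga
Ighv9-2: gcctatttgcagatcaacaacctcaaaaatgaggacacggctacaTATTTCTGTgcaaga
Ighv9-3: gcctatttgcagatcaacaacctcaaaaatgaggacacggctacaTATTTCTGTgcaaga
Ighv1-26: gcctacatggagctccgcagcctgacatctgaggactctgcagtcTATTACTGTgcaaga
The kappa V genes that led a library were Igkv1-110 (chr6:68270485-68271267, plus), Igkv1-117 (chr6:68121046-68121827, plus), Igkv4-50 (chr6:69700767-69701287, minus), Igkv9-120 (chr6:68049983-68050456, plus) and Igkv14-126 (chr6:67896172-67896642, plus), and Iglv1 (chr16:19085017-19085500, minus) had the most reads of the lambda V genes:
Igkv1-110: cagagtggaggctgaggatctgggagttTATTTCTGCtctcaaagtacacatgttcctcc
Igkv1-117: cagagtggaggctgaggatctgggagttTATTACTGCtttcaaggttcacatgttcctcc
Igkv4-50: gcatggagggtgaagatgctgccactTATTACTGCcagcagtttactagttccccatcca
Igkv9-120: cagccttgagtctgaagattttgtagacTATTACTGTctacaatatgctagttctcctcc
Igkv14-126: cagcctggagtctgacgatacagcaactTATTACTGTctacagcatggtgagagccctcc
Iglv1: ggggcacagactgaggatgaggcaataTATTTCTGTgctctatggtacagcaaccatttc
Ighv9-2 and Ighv9-3 share all 60 of these bases. Each of the 9 heavy and kappa genes shown has another V gene of its locus that matches between 89.1% and 96.9% of its exonic bases, among them Igkv1-110 and Igkv1-117, which match each other at 96.8%. A read can therefore fit more than 1 V gene, and the split of reads between close V genes is uncertain.

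The targeted gene, Bmpr1a on chromosome 14, had 10.6, 11.7, 8.74 and 9.52 FPKM (fragments per kilobase of a gene's length after scaling for depth) in control replicates 1 to 4 and 12.02, 12.03, 10.2 and 10.4 FPKM in cKO replicates 1 to 4, so libraries labelled cKO did not have less of its RNA, and the directions given here rest on those labels. By western blot, the paper reports less BMPR1a protein in epithelial cells isolated from cKO mice at the same day of pregnancy. It also reports BMPR1a in luminal as well as myoepithelial cells. Why RNA and protein differ was not tested. The 8 libraries held between 16123108 and 19896988 reads on genes, of which between 1429 and 21304 lay on immunoglobulin genes. Control replicate 3 stood apart, with the highest value of 119 of the 203 members with reads, so values without it are given beside most results. In these bulk samples, fewer lymphoid cells and less immunoglobulin RNA per cell cannot be told apart.

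Immunoglobulin genes held a small part of the RNA, and control replicate 3 had most of it. Scaled by the size factors contained in the deposited FPKM, all members together had 281.5, 104.1, 1271.5 and 154.9 reads per 1000000 in control replicates 1 to 4. The cKO replicates 1 to 4 had 108.5, 137.4, 90.0 and 165.9 reads per 1000000. The cKO values lay between 90.0 and 165.9 and overlapped the lower control values, and the ratio of the cKO mean to the control mean was 0.277 with all libraries and 0.696 without control replicate 3. The heavy chain constant genes gave a ratio of 0.262 (0.661 without that library), the kappa constant gene 0.276 (0.764) and the lambda constant genes 0.335 (0.657). A sum over chosen members was given no test.

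**Figure D1:**
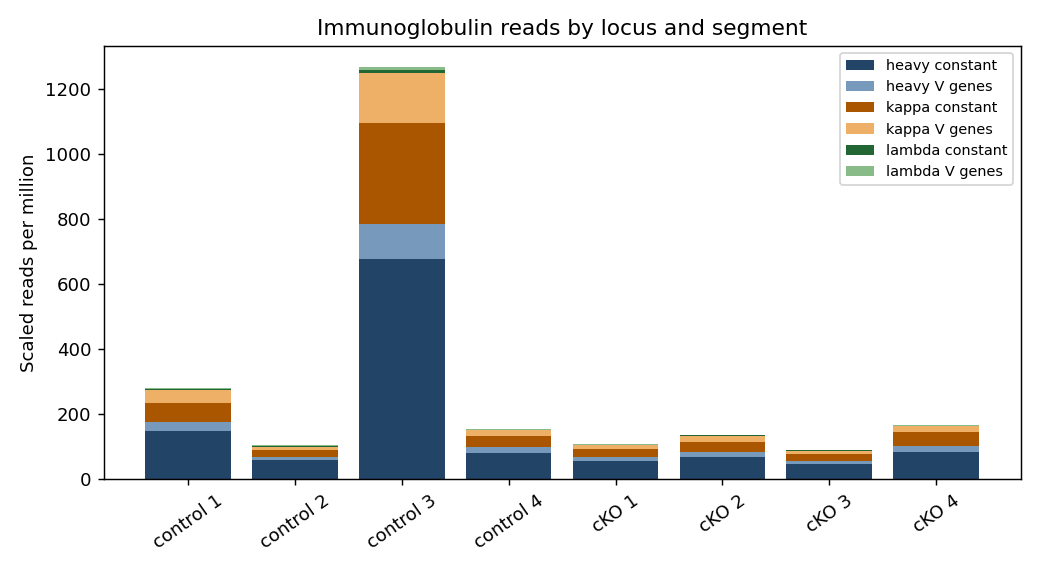
Stacked bars of scaled reads per 1000000 (y axis) on the constant and V genes of the heavy, kappa and lambda loci in each library (x axis), with J genes too few to be seen and left out. Control 3 reaches 1271.5 reads per 1000000 over all members, while the other libraries lie between 90.0 and 281.5.

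Of the 101 members tested, that is with a mean of at least 0.5 FPKM over the 8 libraries, 0 had an adjusted p under 0.05 from limma, beside 0.892% of the 15143 genes tested. At an unadjusted p under 0.05, 6 members were lower in cKO libraries and 0 higher, while over all genes 7.53% were lower and 8.85% higher. That count of 6 was 29 of 109 members tested without control replicate 2, where 2353 of 15120 genes passed in either direction, and 20 of 104 without control replicate 4, where 2140 of 15176 did. It was 3 of 106 without cKO replicate 2 (2103 of 15133 genes) and 3 of 111 without cKO replicate 3 (2514 of 15175 genes). The smallest adjusted p of a member was 0.194, for Ighm. The other 5 at an unadjusted p under 0.05 were Ighg2b, Ighv1-26, Ighv8-12, Igkv8-30 and Igkv17-121. Of the 101, 0 had control and cKO libraries that did not overlap, whereas 4.6% of all genes were without overlap and lower in cKO libraries and 6.1% were without overlap and higher. Below the filter, Ighv9-4 with 1 read in each control and 2 to 4 in each cKO library, and Ighv1-47 with 1 to 5 reads in each control and 0 in each cKO library, were without overlap and were not tested. Both are named after their values were seen. By sign alone, 93 of the 101 members had a lower mean in cKO libraries, with a median log2 fold change of -0.55 against 0.00072 over all genes. Of the 101, 41 passed the filter only through their control mean, 60 passed it in both groups and 0 passed it only through the cKO mean.

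Without control replicate 3, 77 members passed the filter, 51 of them lower in cKO libraries, and the median log2 fold change was -0.24. Among these, limma gave 0 adjusted p under 0.05, beside 9 of 15118 genes in that fit. At an unadjusted p under 0.05, 5 members were lower, namely Ighm, Ighg1, Ighv1-26, Ighv9-3 and Igkv8-30. In the same fit 2 were higher, Ighv1-22 and Igkv9-124, beside 2172 of 15118 genes past this threshold in either direction. Ighv1-22 had 1, 1, 19 and 0 reads in control and 3, 18, 5 and 3 reads in cKO replicates 1 to 4. Igkv9-124 had 1, 1, 23 and 3 reads against 8, 2, 4 and 8. These genes are named after their values were seen.

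**Figure D2:**
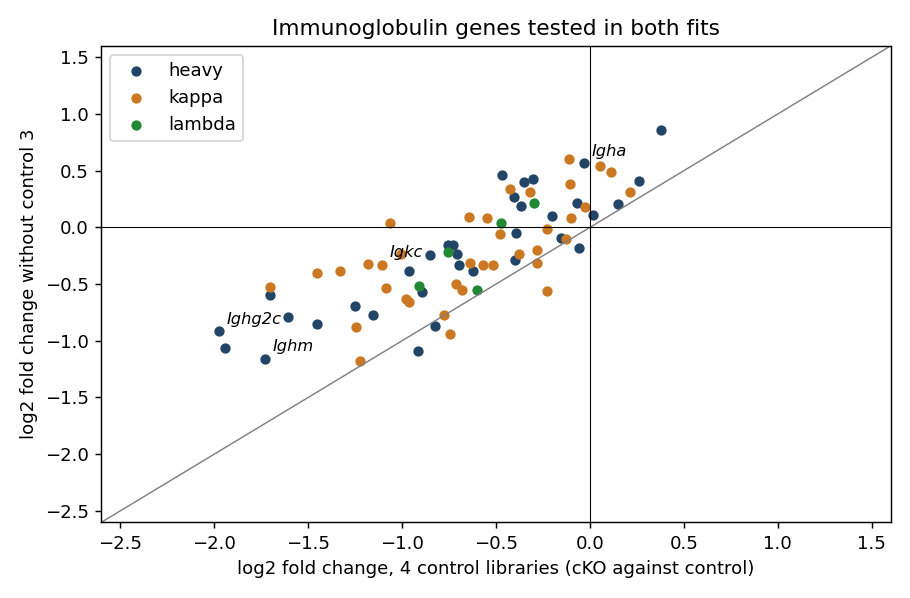
Each point is 1 of the 76 members tested in both fits, with its log2 fold change (cKO against control, on log2(FPKM + 1)) over all 8 libraries on the x axis and without control 3 on the y axis, coloured by locus; the grey line marks equal values. Without control 3, 70 of the 76 points lie above the line, with Igha at 0.57 and Ighm at -1.16.

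Among the heavy chain constant regions, Ighm, that of IgM, had the smallest adjusted p. Ighm lies on chromosome 12 from 113418558 to 113422730 on the minus strand. Its level was 14.3, 19.5, 66.0 and 7.18 FPKM in control replicates 1 to 4. In cKO replicates 1 to 4 it was 8.87, 7.01, 2.67 and 3.91 FPKM, with between 80 and 2084 reads per library. Only control replicate 4 lay below a cKO library. The means were 26.7 ± 26.6 and 5.62 ± 2.84 FPKM (SD, n = 4 each), and the log2 fold change was -1.73 (standard error 0.59, limma adjusted p = 0.194). A two-sided exact permutation test gave p = 0.0571, and 4 libraries against 4 allow no p under 0.0286. Without control replicate 3 the log2 fold change was -1.16 (limma adjusted p = 0.258).

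Igha, the constant region of IgA, on chromosome 12 from 113254830 to 113260236, overlapped between the groups. Its level was 20.4, 1.73, 55.0 and 19.5 FPKM in control replicates 1 to 4 and 10.1, 16.4, 12.7 and 22.4 FPKM in cKO replicates 1 to 4. The lowest and the highest library were both controls, replicates 2 and 3, and the 4 cKO libraries lay between them. Means were 24.2 ± 22.3 and 15.4 ± 5.37 FPKM (SD, n = 4 each). The log2 fold change was -0.03 (standard error 0.78, limma adjusted p = 0.989; two-sided exact permutation test, p = 0.971). Without control replicate 3 the log2 fold change was 0.57 (limma adjusted p = 0.752), and without control replicate 2 it was -0.88.

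The IgG constant regions were led by Ighg2c, on chromosome 12 from 113285325 to 113288932, which takes the place of the IgG2a gene in C57BL/6 mice. Ighg2c had 15.97, 2.70, 128 and 4.10 FPKM in control replicates 1 to 4 and 1.84, 3.52, 1.42 and 4.63 FPKM in cKO replicates 1 to 4. Control replicates 1 and 3 were above every cKO library, and control replicates 2 and 4 were within the cKO range. Its log2 fold change was -1.97 with a standard error of 0.98 (limma adjusted p = 0.36), and -0.91 without control replicate 3 (limma adjusted p = 0.469).

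Ighg2b, on chromosome 12 from 113302965 to 113307933, had 10.3, 2.33, 25.0 and 1.99 FPKM in control and 1.43, 1.29, 1.43 and 2.83 FPKM in cKO replicates 1 to 4, a log2 fold change of -1.45 (standard error 0.63, limma adjusted p = 0.297), or -0.85 without control replicate 3 (limma adjusted p = 0.428). The cKO replicate 4 lay above 2 control libraries. Ighg1, on chromosome 12 from 113325240 to 113330523, was the IgG gene most tied to control replicate 3. Its values were 0.824, 2.07, 51.3 and 1.64 FPKM in control and 0.919, 0.5847, 0.316 and 0.727 FPKM in cKO replicates 1 to 4. The log2 fold change of Ighg1 was -1.70 with control replicate 3 and -0.60 without it (limma adjusted p = 0.404 and 0.241).

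Ighg3, from 113356224 to 113361232, ranged from 0.0689 to 8.32 FPKM in control and from 0.0752 to 0.686 FPKM in cKO libraries, and its log2 fold change was -0.97, or -0.38 without control replicate 3. The 4 IgG genes together had 30.9, 7.17, 213 and 7.97 FPKM in control and 4.74, 5.83, 3.25 and 8.88 FPKM in cKO replicates 1 to 4. Their cKO mean was 0.0876 of the control mean, and 0.37 of it without control replicate 3. Within IgG, Ighg2c held between 37.7% and 60.3% of the FPKM in control and between 38.7% and 60.4% in cKO libraries, so the ranges of the groups nearly coincided. Ighd, the constant region of IgD, from 113406604 to 113416324, was low: 2.98, 0.486, 8.14 and 0.224 FPKM in control and 0.327, 0.191, 0.166 and 0.113 FPKM in cKO replicates 1 to 4. Its log2 fold change was -1.25 (limma adjusted p = 0.309), and -0.69 without control replicate 3 (limma adjusted p = 0.427). Only control replicate 4 fell within the range of the cKO libraries.

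**Figure D3:**
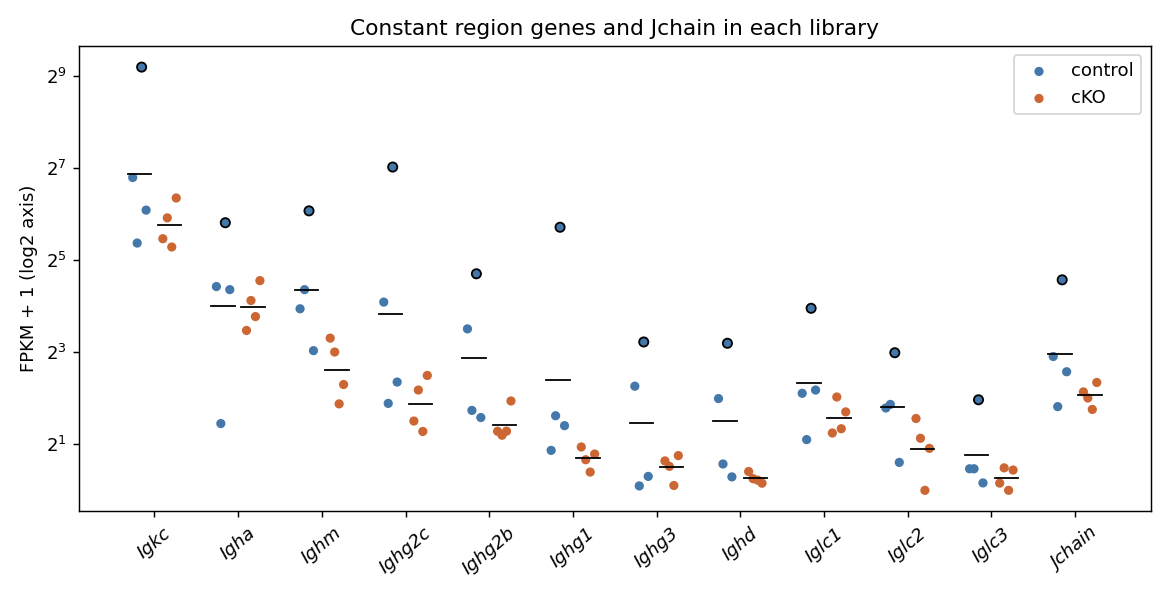
FPKM + 1 (log2 y axis) of 11 constant region genes and Jchain (x axis), 1 point per library, with control in blue and cKO in orange, control 3 outlined in black, and a bar at the mean of log2(FPKM + 1) of each group. Control 3 is the highest library for all 12 genes, and for Igha the bars of the groups nearly coincide (log2 difference -0.03).

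Ratios of genes within a library do not depend on how libraries are scaled. IgA held 29.8%, 6.00%, 16.1% and 55.9% of the heavy chain constant FPKM in control replicates 1 to 4. In cKO replicates 1 to 4 it held 42.0%, 55.7%, 67.5% and 63.5%. IgA was the largest class in all 4 cKO libraries and in control replicate 4, and IgG was the largest in control replicates 1 and 3. In control replicate 2, IgM held 67.5%. As reads, Igha had 80 of the 998 heavy chain constant reads in control replicate 2 (8.02%, 95% Wilson interval 6.49% to 9.87%) and 536 of 728 in cKO replicate 3 (73.6%, 70.3% to 76.7%). These intervals cover counting error only.

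The log2 ratio of Igha to Ighm reads was 1.01, -2.99, 0.24 and 1.94 in control replicates 1 to 4. In the cKO replicates it was 0.68, 1.73, 2.74 and 3.02. The difference of the means was 1.99 (two-sided exact permutation test, p = 0.143, or 0.286 after Benjamini-Hochberg adjustment over the 2 ratios tested), and the groups overlapped. Without control replicate 3 it was 2.06 (two-sided exact permutation test, p = 0.2), and without control replicate 2 it was 0.98 (two-sided exact permutation test, p = 0.257). Control replicate 2, with 80 Igha reads, lay far below the other 7 libraries, of which control replicates 1 and 4 were within the range of the cKO values.

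**Figure D4:**
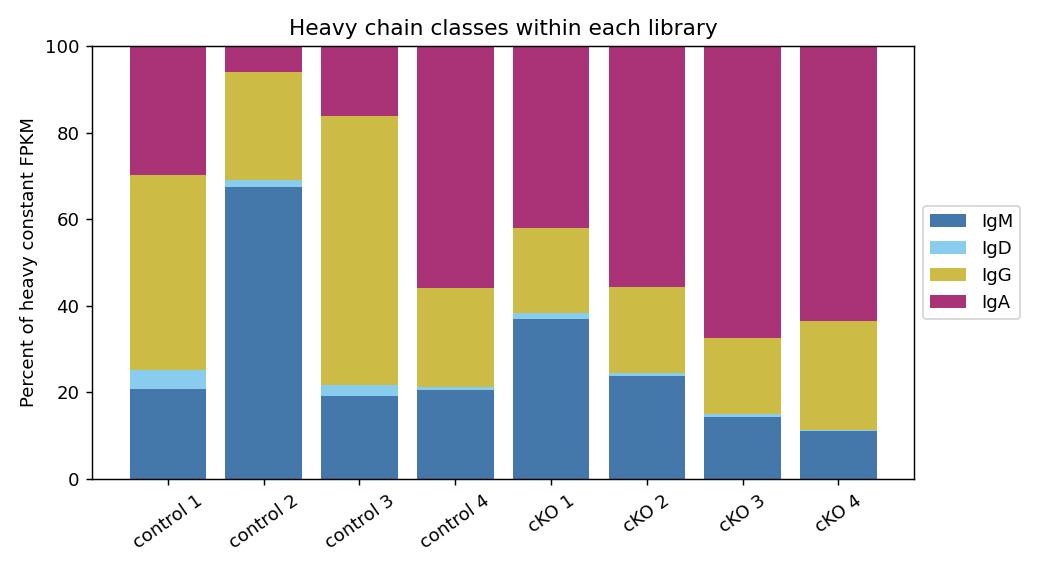
Stacked bars of the percent of heavy chain constant FPKM (y axis) held by IgM, IgD, IgG and IgA in each library (x axis); IgE had 0 reads. IgA holds between 42.0% and 67.5% in the cKO libraries and between 6.00% and 55.9% in the control libraries.

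Igkc, the single kappa constant gene, had the highest FPKM of all members. It lies on chromosome 6 from 70726435 to 70726966. Its level was 110, 40.3, 581 and 66.7 FPKM in control replicates 1 to 4 and 43.0, 59.3, 37.9 and 80.3 FPKM in cKO replicates 1 to 4. Control replicates 1 and 3 were above every cKO library, and control replicates 2 and 4 lay within the cKO range. The means were 199 ± 256 and 55.1 ± 19.1 FPKM (SD, n = 4 each), or 72.2 ± 34.97 FPKM in the 3 other controls. The log2 fold change was -1.11 (standard error 0.71, limma adjusted p = 0.486; two-sided exact permutation test, p = 0.257), and -0.33 without control replicate 3 (limma adjusted p = 0.723).

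The lambda constant genes were far lower. Iglc1, on chromosome 16 from 19061618 to 19062071, had 3.30, 1.14, 14.5 and 3.52 FPKM in control and 1.37, 3.07, 1.53 and 2.25 FPKM in cKO replicates 1 to 4. Iglc2, from 19198396 to 19200351, had 2.45, 2.64, 6.92 and 0.522 FPKM in control and 1.95, 1.19, 0 and 0.88 FPKM in cKO replicates 1 to 4. Both groups overlapped for each gene, and the log2 fold changes of -0.76 and -0.91 were -0.22 and -0.52 without control replicate 3. Iglc3, from 19065230 to 19065681, had at most 22 reads in a library and Iglc4, from 19194999 to 19195312, 1 read in all. Iglc2 and Iglc3 match over 94.3% of their bases, so the split of reads between them is uncertain. An exon of Iglc2 also overlaps Iglj2, which had 0 reads, and one of Iglc3 overlaps the antisense gene 2010309G21Rik, which had at most 1.

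Lambda genes held between 4.01% and 9.38% of the light chain constant FPKM in control libraries and between 3.87% and 7.38% in cKO libraries. In cKO replicate 3 this rested on 11 lambda reads of 331 light chain reads (3.32%, 95% Wilson interval 1.87% to 5.85%). The log2 ratio of Igkc to lambda constant reads differed by 0.16 between the groups (two-sided exact permutation test, p = 0.714 before and after Benjamini-Hochberg adjustment over the 2 ratios). The light chain constant FPKM were 1.69, 1.54, 1.77 and 2.03 times the heavy chain constant FPKM in control replicates 1 to 4 and 1.93, 2.17, 2.10 and 2.37 times in cKO replicates 1 to 4. The groups overlapped only in that control replicate 4 lay above cKO replicate 1. This ratio was given no test.

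Jchain, which encodes the J chain that links polymeric IgA and IgM and lies outside the 3 loci, had 6.49, 2.52, 22.7 and 4.95 FPKM in control and 3.40, 3.01, 2.38 and 4.06 FPKM in cKO replicates 1 to 4. Its log2 fold change was -0.91 (standard error 0.49, limma adjusted p = 0.402; two-sided exact permutation test, p = 0.143) and -0.37 without control replicate 3 (limma adjusted p = 0.54). Set against the 2 classes it joins, Jchain was 0.187, 0.119, 0.188 and 0.186 of the summed FPKM of Igha and Ighm in control replicates 1 to 4 and 0.179, 0.129, 0.155 and 0.154 of it in cKO replicates 1 to 4.

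Which V genes held most reads differed among the control mice, while the heavy V gene Ighv1-81 led all 4 cKO libraries. Reads fell on between 41 and 80 heavy V genes per library and on between 37 and 74 kappa V genes. In the heavy locus each control library was led by another V gene. Ighv9-2 held 12.2% of the heavy V FPKM in control replicate 1. Ighv9-3 held 18.7% in control replicate 2, Ighv1-26 held 14.5% in control replicate 3, and Ighv1-81 held 23.5% in control replicate 4. In the 4 cKO libraries Ighv1-81 held 13.4%, 11.99%, 26.2% and 12.4% of it in replicates 1 to 4. In control replicates 1 to 3 its share was 5.62%, 2.93% and 12.1%, so the cKO shares overlapped those of control replicates 3 and 4. The numbers behind these shares are small, from 27 to 40 Ighv1-81 reads in the cKO libraries, and in cKO replicate 3 the 95% Wilson interval of its share of V reads ran from 19.4% to 33.0%.

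The level of Ighv1-81 was 4.603, 0.822, 36.2 and 10.6 FPKM in control and 5.31, 4.66, 7.18 and 5.52 FPKM in cKO replicates 1 to 4 (log2 fold change -0.30, limma adjusted p = 0.883). The direction turned when control replicate 3 was left out, to a log2 fold change of 0.43 (limma adjusted p = 0.759). Ighv1-26 had 6.25, 2.30, 43.2 and 1.37 FPKM against 2.07, 0.345, 0.718 and 0.614 FPKM, a log2 fold change of -1.94 (limma adjusted p = 0.274), and -1.06 without control replicate 3. Ighv9-3 had 2.96, 5.26, 38.8 and 1.82 FPKM against 0.886, 1.21, 0.897 and 3.07 FPKM, a log2 fold change of -1.61 (limma adjusted p = 0.318), and -0.79 without that library. For these 3 genes control replicate 3 was the highest library. The other heavy V genes with the most reads, Ighv1-53, Ighv1-64 and Ighv1-55, had log2 fold changes of -0.47, -0.76 and -0.85 and overlapped between the groups. With that library left out these were 0.46, -0.15 and -0.24, so that of Ighv1-53 changed sign.

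The leading V gene of a control library could be nearly missing from the others. Ighv9-2 had 61 reads in control replicate 1 and only 0, 3 and 2 reads in control replicates 2 to 4, beside 0, 0, 4 and 0 reads in cKO replicates 1 to 4. Igkv4-50, which led the kappa locus of control replicate 1 with 13.9% of its V FPKM, had 89 reads there and 0 reads in the other 3 control libraries. It had 3, 13, 2 and 2 reads in cKO replicates 1 to 4. Igkv4-53 followed the same course, with 65 reads in control replicate 1, at most 10 in another control library and at most 1 in a cKO library. Where a gene had 0 reads, a level of up to 3 reads is allowed by counting error. Igkv14-126 led control replicate 2 with 19 reads, or 11.1% of the kappa V FPKM, and had 0, 14 and 2 reads in control replicates 1, 3 and 4. Ighv9-2, Igkv4-50, Igkv4-53 and Igkv14-126 are named after their values were seen.

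Igkv9-120 led control replicate 3, with 49.7 FPKM and 294 reads, against 2.94, 0.164 and 0.604 FPKM in control replicates 1, 2 and 4 and 0.147, 0.515, 0 and 0.915 FPKM in cKO replicates 1 to 4. Igkv1-135, Igkv14-111 and Igkv6-17 were likewise above 33 FPKM only in control replicate 3. Their log2 fold changes were -1.06, -1.33 and -1.45, each with a limma adjusted p of at least 0.466. Leaving out control replicate 3, they were 0.042, -0.38 and -0.40, and the log2 fold change of Igkv9-120 went from -1.70 to -0.53. In the other libraries the kappa locus was led by a pair of closely related genes. Igkv1-110 led control replicate 4 and cKO replicates 1 and 3, with 12.4%, 8.04% and 23.9% of the kappa V FPKM, and Igkv1-117 led cKO replicates 2 and 4, with 10.5% and 10.3%. In cKO replicate 3 both were high, Igkv1-117 with 21.7%. The level of Igkv1-110 was 4.46, 2.02, 26.9 and 5.71 FPKM in control and 2.71, 3.17, 7.22 and 4.30 FPKM in cKO replicates 1 to 4. That of Igkv1-117 was 3.999, 1.57, 10.5 and 3.96 FPKM against 2.56, 5.10, 6.55 and 5.06 FPKM, a log2 fold change of 0.11 (limma adjusted p = 0.923). The log2 fold change of Igkv1-110 was -0.55, or 0.087 without control replicate 3, where that of Igkv1-117 was 0.49.

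**Figure D5:**
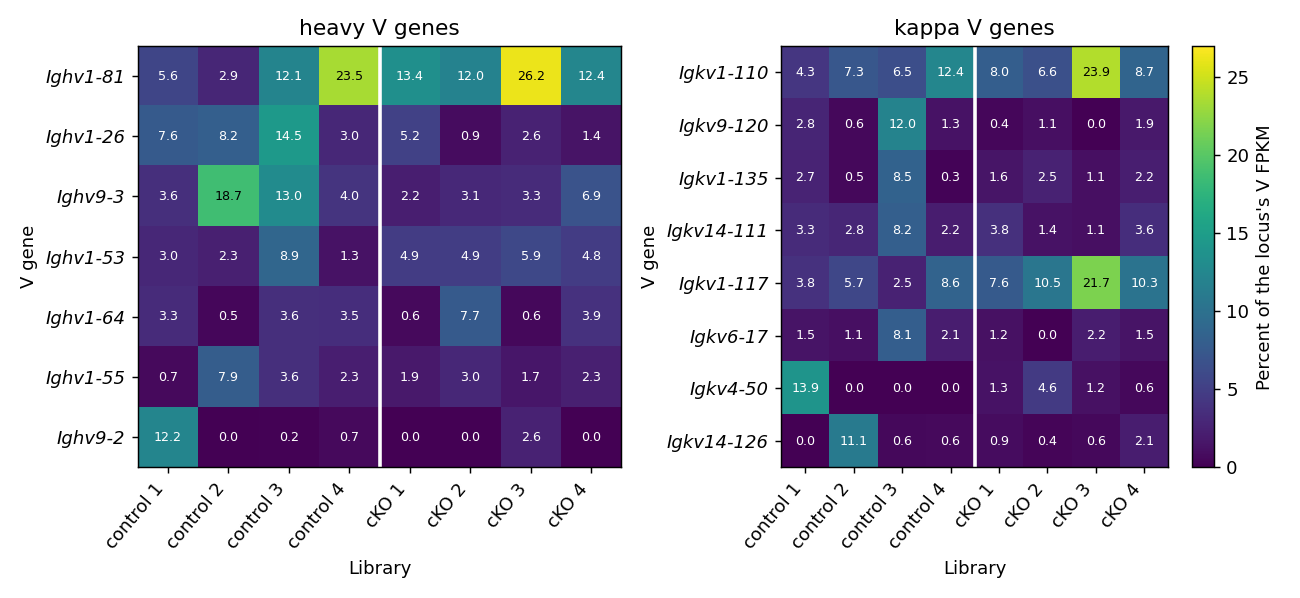
Percent of the heavy (left) or kappa (right) V FPKM of a library (columns, control left and cKO right of the white line) held by single V genes (rows), printed in each cell and shown by colour from 0 to 27. Ighv1-81 leads control 4 and all 4 cKO libraries, and Igkv4-50 holds 13.9% in control 1 and 0 in the other control libraries.

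The spread of reads over V genes can be put as an effective number, the exponential of the Shannon entropy of the shares, which equals the number of V genes when all are used alike. For the heavy locus it was 32.4, 24.3, 26.2 and 26.6 in control replicates 1 to 4, while the cKO replicates had 35.3, 33.8, 23.7 and 39.0. For the kappa locus the control replicates had 27.9, 28.9, 31.4 and 33.5, and the cKO replicates 36.3, 34.3, 16.4 and 35.4. The cKO replicate 3 had the lowest value in both loci and also the fewest V reads in the heavy locus, 156. Counted in 156 reads of every library, heavy V genes numbered from 39.1 to 44.0 in control and from 42.0 to 50.3 in cKO libraries. In 175 kappa reads they numbered from 41.2 to 47.0 and from 36.4 to 47.8. Control replicate 3, with 1815 heavy and 2569 kappa V reads in all, lay within the range of the other controls on this scale.

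Usage overlap, the summed smaller share of every V gene in a pair of libraries, had a median of 55.1% between cKO libraries, 49.5% between control libraries and 49.6% across the groups for the heavy locus. For the kappa locus the medians were 52.3%, 43.3% and 48.5%. The pairs share libraries, so no test was made. By family, the Ighv1 genes, the largest heavy family with 53 of the V genes, held from 46.0% to 67.5% of the heavy V FPKM in control and from 58.7% to 72.3% in cKO libraries. Ighv9, with 4 genes, held from 5.03% to 19.3% and from 4.44% to 8.51%. In the kappa locus, Igkv1 held from 11.04% to 22.3% in control and from 17.6% to 46.7% in cKO libraries, and Igkv4 from 10.5% to 30.9% and from 9.82% to 20.9%.

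Lambda V reads lay mostly on Iglv1, with 5.90, 2.51, 19.8 and 4.22 FPKM in control and 3.71, 5.74, 3.87 and 3.58 FPKM in cKO replicates 1 to 4 (log2 fold change -0.47, limma adjusted p = 0.667, and 0.038 on the log2 scale without control replicate 3). Iglv2 had at most 20 reads in a library and was above Iglv1 only in control replicate 2, at 3.16 FPKM. Iglv3, the third named lambda V gene, had at most 12 reads. Lambda V reads per lambda constant read ranged from 0.759 to 1 in control libraries and from 1.03 to 2.18 in cKO libraries, without overlap, but the highest of these ratios rested on 11 constant reads. The same ratio was from 0.16 to 0.201 and from 0.193 to 0.264 for the heavy locus, and from 0.472 to 0.661 and from 0.427 to 0.575 for the kappa locus.

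J and D segments are short, and few reads were assigned to them. Kappa J genes had 17, 1, 20 and 6 reads in control and 5, 3, 6 and 4 reads in cKO replicates 1 to 4, heavy J genes at most 6 in a library and lambda J genes at most 3. The 5 kappa J genes are shown because their locus had the most J reads and they differ in a part that a functional kappa J segment needs. Capitals mark TTCGG, the start of the phenylalanine and glycine codons of the joining motif, searched on the given strand. The sequences are those of the GENCODE vM21 transcripts, on the plus strand of chromosome 6, at chr6:70722562-70722599, chr6:70722916-70722958, chr6:70723223-70723260, chr6:70723548-70723585 and chr6:70723886-70723927 in the order given, where the transcripts of Igkj2 and Igkj5 are shorter than the span of the gene:
Igkj1: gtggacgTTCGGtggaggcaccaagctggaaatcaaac
Igkj2: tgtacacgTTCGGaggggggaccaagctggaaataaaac
Igkj3: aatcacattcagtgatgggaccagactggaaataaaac
Igkj4: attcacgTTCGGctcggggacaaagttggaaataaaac
Igkj5: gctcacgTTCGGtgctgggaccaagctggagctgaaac
These letters were found in 8 of the 14 J genes, namely 4 kappa and 4 lambda ones, and not in Igkj3, which is known as a non-functional segment in mice. Their absence from the heavy J genes was not taken as a sign of lost function. Igkj5 had the most reads, 27 over the 8 libraries. Igkj4 had 13, Igkj2 and Igkj3 had 9 each and Igkj1 had 4. For none of these did the groups separate.

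Genes that act with immunoglobulins were described by lists of markers, of which only genes with a mean of at least 0.5 FPKM were tested. Of 8 B cell genes tested, 5 had an unadjusted p under 0.05 and were lower in cKO libraries, and 0 had an adjusted one, beside 7.53% of all genes lower. The median log2 fold change of the 8 was -0.81. The summed FPKM of the 15 listed B cell genes ran from 6.43 to 49.7 in control and from 3.65 to 6.26 in cKO libraries. Among them were Cd79a, Cd79b, Spib and Cd37. Cd79b, a signalling chain of the B cell receptor, had 3.39, 1.57, 5.80 and 1.04 FPKM in control and 0.796, 1.02, 0.66 and 0.715 FPKM in cKO replicates 1 to 4. Its groups did not overlap, and its log2 fold change was -0.98 (limma adjusted p = 0.191), or -0.67 without control replicate 3. Cd79a, the other signalling chain, had a log2 fold change of -1.38 (limma adjusted p = 0.229), or -0.87 without that library. Ms4a1, the gene of CD20, was not above 0.84 FPKM in any library and was not tested.

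Without control replicate 3, 3 of 7 B cell genes tested had an unadjusted p under 0.05, all lower in cKO libraries, beside 971 of 15032 genes lower in that fit among those tested in both, and the median log2 fold change was -0.50. Spib and Cd37 lost their calls there, with log2 fold changes going from -0.71 to -0.41 and from -0.88 to -0.50. The T cell genes had the same sign. All 8 tested had a lower mean in cKO libraries, 3 with an unadjusted p under 0.05, namely Cd4, Lck and Cd2, beside 7.53% of all genes lower. Their summed FPKM over 9 genes was 5.87 to 25.8 in control and 4.43 to 7.81 in cKO libraries. Of these T cell genes, 4 were tested without control replicate 3 and 1, Cd4, was lower at an unadjusted p under 0.05, beside the same 971 of 15032 genes. The log2 fold changes of Cd4, Lck and Cd2 were -0.54, -0.47 and -0.61, and -0.38, -0.29 and -0.36 without that library, where Lck and Cd2 lost their calls. Trac, the constant gene of the T cell receptor alpha chain and the T cell gene with the highest mean, had 4.999, 1.54, 7.92 and 2.17 FPKM in control and 2.16, 1.43, 1.55 and 3.34 FPKM in cKO replicates 1 to 4. Its log2 fold change was -0.59 (limma adjusted p = 0.491), and -0.26 without control replicate 3. The 9 T cell genes and 14 of the 15 B cell genes were highest in control replicate 3. The part of B and T cell content in the immunoglobulin values was not tested.

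Plasma cell genes lay on both sides. Of 11 tested, 2 were lower and 2 higher in cKO libraries at an unadjusted p under 0.05, beside 7.53% of all genes lower and 8.85% higher. Pou2af1, a B lineage transcription coactivator, had 2.92, 1.495, 5.01 and 1.19 FPKM in control and 0.833, 0.832, 0.766 and 0.697 FPKM in cKO replicates 1 to 4 (log2 fold change -0.92, limma adjusted p = 0.157, and -0.64 without control replicate 3), and Slamf7 was the other lower one (log2 fold change -0.27, or -0.30 without that library). Xbp1, which encodes a transcription factor of secretory cells, rose from 103 ± 3.20 to 144 ± 2.83 FPKM (SD, n = 4 each). The log2 fold change was 0.48 (limma adjusted p = 0.0204, and 0.0583 without control replicate 3). Fkbp11, an endoplasmic reticulum chaperone gene, had a log2 fold change of 0.59 (limma adjusted p = 0.132), or 0.70 without control replicate 3. Sdc1 had a log2 fold change of -0.18 (-0.12 without control replicate 3). Xbp1 and Sdc1, the pair with the highest mean of the list, are expressed by mammary epithelium as well as by plasma cells. Mzb1, a gene of B lineage cells, was at most 0.57 FPKM, and Tnfrsf17, the plasma cell receptor BCMA, at most 0.32 FPKM.

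Of 8 genes of immunoglobulin transport and Fc receptors tested, 1 had an unadjusted p under 0.05 and was higher, beside 8.85% of all genes. This was Pigr, the receptor that carries polymeric IgA across the epithelium, with 15.7, 13.4, 16 and 14.5 FPKM in control and 43.1, 24.0, 18.6 and 53.1 FPKM in cKO replicates 1 to 4. All 4 cKO libraries were above the 4 control libraries. The log2 fold change of Pigr was 1.05 (standard error 0.29, limma adjusted p = 0.129; two-sided exact permutation test, p = 0.0286, the smallest p that 4 against 4 allow), and 1.08 without control replicate 3 (limma adjusted p = 0.207). Fcer1g, the common Fc receptor chain and with Pigr the highest of the list, had a log2 fold change of -0.35 (limma adjusted p = 0.397), or -0.29 without that library.

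Of 8 genes of plasma cell homing tested, 2 had an unadjusted p under 0.05, both higher in cKO libraries, beside 8.85% of all genes. Without control replicate 3, 1 more, Vcam1, was lower at that threshold (log2 fold change -0.36, limma adjusted p = 0.333). In that fit 971 of 15032 genes, among those tested in both, were lower. Vcam1 is named after its values were seen. Madcam1, a vessel adhesion molecule for lymphocytes, had 2.57, 2.17, 3.37 and 3.71 FPKM in control and 4.26, 9.12, 4.604 and 7.39 FPKM in cKO replicates 1 to 4, without overlap (log2 fold change 0.86, limma adjusted p = 0.113, and 0.91 without control replicate 3). Tnfsf13, the plasma cell survival factor APRIL, had a log2 fold change of 0.31 in both fits (limma adjusted p = 0.208, and 0.322 without control replicate 3). Itgb1 and Il6 had the highest means of that list and log2 fold changes of 0.035 and -0.27 (0.025 and -0.30 without control replicate 3). Ccl28, the chemokine that draws IgA plasma cells, was at most 0.29 FPKM, and its receptor gene Ccr10 at most 0.25 FPKM.

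Of 5 lymph node genes tested, Ccl21a and Ltb were lower and Glycam1 and Madcam1 higher at an unadjusted p under 0.05, beside 7.53% of all genes lower and 8.85% higher. Glycam1 rose from 423 ± 197 to 1906 ± 645 FPKM (SD, n = 4 each; log2 fold change 2.24, limma adjusted p = 0.0339, and 0.0583 without control replicate 3) and is also a milk protein gene of the epithelium. Ccl21a, the chemokine of T cell zones, was 3.16, 2.15, 10.7 and 1.33 FPKM in control and 2.06, 1.21, 0.313 and 0.67 FPKM in cKO replicates 1 to 4 (log2 fold change -1.15, limma adjusted p = 0.272). Without control replicate 3 the log2 fold change of Ccl21a was -0.67 and its unadjusted p was over 0.05, while Ltb went from -0.90 to -0.57 and stayed under it. Of 4 germinal centre genes tested, Fas was higher at an unadjusted p under 0.05, as were 8.85% of all genes (log2 fold change 0.41, limma adjusted p = 0.2). That call was lost without control replicate 3 (log2 fold change 0.33), where 0 of the 4 passed. S1pr2, with Fas the highest of that list, had a log2 fold change of 0.085 (0.072 without that library). None of the 7 genes of rearrangement and the surrogate light chain reached the filter, Rag2 being at 0 reads in every library and Vpreb3 and Dntt, the highest of them, at most 0.69 and 0.052 FPKM. Krt8 and Krt18, keratin genes of luminal epithelium, stood between 1067 and 2109 FPKM in every library and had log2 fold changes of -0.0033 and 0.065 (0.018 and 0.090 without control replicate 3). Of the 5 epithelial genes tested, Krt14, a basal keratin, was the only one with an unadjusted p under 0.05 and was lower (log2 fold change -0.39, limma adjusted p = 0.209), beside 7.53% of all genes. That call was lost without control replicate 3 (log2 fold change -0.35), where 0 of the 5 passed. Krt5, the other basal keratin, which is named after its values were seen, had a log2 fold change of 0.024 (0.073 without control replicate 3).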

How the data were processed

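Libraries were matched to 4 control and 4 cKO mice by the sample labels. The authors prepared libraries with a NEBNext Ultra kit, which marks no strand, used Hisat2 for mapping to GRCm38 and deposited FPKM per gene, which are size-factor scaled. The submitters' processing notes name featureCounts 1.5.0-p3, StringTie 1.3.3b and mm9, but the coordinates of all 268 members equal those of GENCODE vM21 (GRCm38). FPKM times gene length gave whole reads for 100% of the values (tolerance 0.01 of a read). Reads spanning a V-D-J junction or a mutated V segment can fail to map to germline genes, and how far this lowers the values was not tested. Genes with few reads carry a large counting error. Levels are FPKM, and sums are reads per 1000000 of scaled library size.

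Since FPKM are no counts, groups were compared on log2(FPKM + 1) in limma 3.58.1 and R 4.3.3 (trended empirical Bayes, Benjamini-Hochberg adjustment) over 15143 genes, those whose mean FPKM reached 0.5. The pseudocount of 1 understates changes of low genes. Tests on single genes and ratios were exact permutation tests. The 8 columns are from separate mice. In 5 draws of data made with 200 changed genes, among 15127 to 15153 genes tested, limma called 64.2% of the changed ones (86.2% at 2-fold or more), with 7.12% of calls on unchanged genes. The draws gave every gene the same small spread between libraries beyond counting error. Immunoglobulin genes such as Ighm, with 26.7 ± 26.6 FPKM in control (SD, n = 4), varied far more, so these rates do not hold for them. Python 3.11.15, pandas 2.3.3, scipy 1.17.1, Biopython 1.88 and matplotlib 3.10.9 were used elsewhere.

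The members and the marker lists were chosen with earlier results of these data known. The genes named are the constant region genes with reads, the 6 V genes with the most scaled reads in the heavy and in the kappa locus, lambda V genes with at least 10 reads in a library, any member with an adjusted p under 0.05, the J genes with the highest mean, and in each list the genes with an unadjusted p under 0.05 and the 2 with the highest mean. Other genes are named as chosen after their values were seen, or as members of a list at low level. Alternatives were other scalings, a pseudocount of 0.1, other filters, no trend, limma-voom, the replicate number as a block, and each library left out. Promoters and proteins of the members were not analysed here. One gene of the B cell list is counted in that list but not reported here.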

Additional observations from a re-analysis of the deposited data

Results flagged for a closer look

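Of 75 groups of 4 libraries examined, 20 held a library whose gap to the nearest other library passed Dixon's 95% critical value. For normally distributed values chance alone flags about 1 in 20 groups, or 3.8 here, but whether these values were normal was not tested. The V genes examined were chosen for the most scaled reads over the 8 libraries, and control replicate 3 held the most immunoglobulin reads. Its V gene flags are therefore partly a result of that choice. Control replicate 3 gave 14 of the 20, and the values of 1 library are not independent of each other. It held 1270 scaled immunoglobulin reads per 1000000, while the other controls had 104.1 to 281.5. Its constant region levels were 581 FPKM for Igkc, 128 FPKM for Ighg2c, 51.3 FPKM for Ighg1 and 2.91 FPKM for Iglc3. Its heavy V gene levels were 43.2 FPKM for Ighv1-26, 38.8 FPKM for Ighv9-3, 26.5 FPKM for Ighv1-53 and 10.8 FPKM for Ighv1-55. In the kappa locus it had 49.7 FPKM of Igkv9-120, 35.3 FPKM of Igkv1-135, 33.9 FPKM of Igkv14-111, 33.6 FPKM of Igkv6-17 and 26.9 FPKM of Igkv1-110. Its Igha and Ighm levels did not pass that value.

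The other 6 were spread over 5 libraries. In control replicate 2, IgM held 67.5% of the heavy chain constant FPKM, where the other controls had 19.3% to 20.9%. The effective number of kappa V genes was 16.4 in cKO replicate 3, against 34.3 to 36.3 in the other cKO libraries. Ighg2b was 2.83 FPKM and Ighv9-3 was 3.07 FPKM in cKO replicate 4, and Iglv1 was 5.74 FPKM in cKO replicate 2. Iglc4 was 0.184 FPKM in control replicate 1, which is 1 read, and a lone nonzero value always passes the critical value.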

How the results depend on the processing

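No member had an adjusted p under 0.05 in any fit made: 2 other scalings, library totals, a pseudocount of 0.1, no filter, a mean FPKM of at least 1, no trend, limma-voom, the replicate block and each library left out. With 1 library left out, few genes of any kind passed. These were from 0 of 15176 genes (without control replicate 4) to 78 of 15147 (without cKO replicate 1), so 0 members called there says little. With no filter 10 of 31373 genes passed. The count at an unadjusted p under 0.05 was 6 of 101 members, beside 2480 of 15143 genes. It moved to 11 of 100 members in TPM (2444 of 15162 genes) and 10 of 101 with library totals (2656 of 15152 genes). With a pseudocount of 0.1 it was 13 of 101 (2486 of 15143 genes). With 1 library left out it ran from 3 (without cKO replicate 2 or 3) to 29 (without control replicate 2), and was 20 without control replicate 4. The counts over all genes in these fits are given above. TPM and library totals moved the median log2 fold change of all genes to -0.05. DESeq2 and edgeR were not run, and limma-voom on the reads recovered from the FPKM was the only fit on counts.

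The log2 difference of Igha, -0.03, was 0.062 with a pseudocount of 0.1 and ran from -0.88 (without control replicate 2) to 0.57 (without control replicate 3) with a library left out. Over the fits that left out 1 library, the log2 difference ran from -1.60 to -0.33 for Igkc, from -2.17 to -1.16 for Ighm and from -1.29 to -0.37 for Jchain. That of all immunoglobulin reads ran from -1.64 to -0.44, and those of the heavy, kappa and lambda constant reads from -1.71 to -0.52, -1.62 to -0.33 and -1.58 to -0.70. The low sizes were those without control replicate 3. The Igha to Ighm log2 ratio difference ran from 0.98 to 2.62, and that of Igkc to lambda, 0.16, from -0.12 (without control replicate 2) to 0.37. The difference in the effective number of kappa V genes, 0.15, was -0.36 by reads and ran from -1.75 to 4.87, and that of heavy V genes from 3.57 to 8.69. The causes were not tested.

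The replicate numbers are shared by the groups, but same-numbered libraries had correlations of 0.137, 0.11, 0.116 and 0.0797 in their deviations from the group means, so the numbers were not taken as a pairing. With the replicate block, 0 of 101 members passed after adjustment, beside 50 of 15143 genes. Before adjustment 6 members passed, beside 3124 of 15143 genes. Depth limits the V, J and lambda genes: in cKO replicate 3, 11 lambda constant and 156 heavy V reads were found.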

Other observations

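Pseudogenes of the immunoglobulin loci, which were not counted among the members, numbered 164 in the table. They had 1, 0, 1 and 3 reads in control replicates 1 to 4 and 1, 0, 0 and 0 reads in cKO replicates 1 to 4. Of the 203 members with reads, 25 had none in any of the cKO libraries and 9 had none in any of the control libraries. Control replicate 3 had the most immunoglobulin reads, 21304, and 9 members had reads only there. The same counts over all genes were not made. All 4 cKO libraries had reads on 63 members and all 4 control libraries on 70.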
